A study of Rattus norvegicus with 15 samples.

Results

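Fibrinogen is the soluble plasma protein that thrombin turns into the fibrin of a clot. Each molecule is built from paired alpha, beta and gamma chains, encoded by the genes Fga, Fgb and Fgg, which lie next to each other on rat chromosome 2. Hepatocytes make nearly all of it, and the chains are normally produced together and in balance. It is a classical positive acute phase protein: interleukin-6 acting through STAT3, with glucocorticoid, raises all 3 transcripts in rat liver.

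Of the 3 chains, 2 were among the 3400 named genes on the arrays, covered by 2 of the 3757 probes. Fgg had 1 probe (OR3668) and Fgb had 1 probe (OR0595), each with that gene as its single platform symbol, and Fga was not analysed here. Fgg had been picked out for its high values in hepatocellular carcinoma against control liver and against cirrhotic liver, that is, it was chosen by the measured values of those comparisons, which are therefore given as a description, without a test. Fgb was included because it is a chain of the same protein, and its comparisons were tested.

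Liver RNA came from male Fischer344 rats (Fischer in the label of control 1) after 70 weeks on a diet, on 15 arrays. Rats fed a choline-deficient, L-amino acid-defined diet gave hepatocellular carcinoma (5 samples) and noncancerous, cirrhotic liver (5 samples), in a model where fatty change and cirrhosis precede liver tumours. Control liver (5 samples) came from rats on a basal diet. Which samples share a rat is not stated in the labels, and p-values therefore reflect only sample-to-sample spread, which may be technical.

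Each deposited value is a ratio to that probe's median on the 15 arrays, so it shows differences between samples but no absolute level, and the levels of different genes cannot be compared. The values below are log2 ratios after quantile normalization over the 15 arrays, where 0 lies near the probe's median. No value of Fgg or Fgb was at the deposited lower limit of 0.01, which 657 values of other probes had reached. Of the 16 hepatocyte markers listed, 13 were measured. Their mean log2 ratio per sample ran from -0.61 to 0.55 in carcinoma, from -0.51 to 0.74 in cirrhotic liver and from -0.65 to 0.48 in control liver, so the groups overlapped in this mean, although single markers moved in different directions. Cyp3a2, a cytochrome P450, was lower in all tumours than in all control samples (-2.34, limma adjusted p = 0.489), as 0.825% of probes were. Otc, a urea cycle enzyme, was lower in all tumours than in all cirrhotic samples (-3.04, adjusted p = 0.224), as 1.46% of probes were, but overlapped with a running median along the probe numbering removed. Conversely, the marker G6pc1 overlapped between tumours and control liver (-2.05, adjusted p = 0.564), but was lower in all tumours with that median removed (-1.97). Cps1, another urea cycle enzyme, differed by 1.28 between carcinoma and control liver (adjusted p = 0.587). In such tissue samples, fewer cells of a type and less RNA per cell cannot be told apart.

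The sequences before the measured genes are shown because common control of the chains is usually traced to them. They are the 250 bases before a transcription start in RefSeq (assembly GRCr8), for Fgg at chr2:170652833-170653082 on the plus strand and for Fgb at chr2:170700876-170701125 on the minus strand. Capitals mark the letters CTGGGAA, the core of the interleukin-6 response element of acute phase genes, and GTTAAT, one arm of the site for the hepatocyte factor HNF1, each searched on both strands (GTTAAT reads ATTAAC on the other strand).
Fgg: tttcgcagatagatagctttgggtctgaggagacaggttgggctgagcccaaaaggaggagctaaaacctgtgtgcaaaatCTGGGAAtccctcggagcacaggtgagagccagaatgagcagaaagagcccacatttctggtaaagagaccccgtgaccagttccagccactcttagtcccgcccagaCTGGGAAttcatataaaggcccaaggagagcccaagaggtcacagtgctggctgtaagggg
Fgb: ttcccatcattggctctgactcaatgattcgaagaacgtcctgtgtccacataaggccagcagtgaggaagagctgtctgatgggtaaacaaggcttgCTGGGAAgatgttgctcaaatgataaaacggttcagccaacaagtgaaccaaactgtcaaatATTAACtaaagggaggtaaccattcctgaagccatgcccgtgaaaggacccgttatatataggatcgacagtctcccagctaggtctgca

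CTGGGAA was found 2 times before Fgg, at -169 to -163 and -61 to -55 from the start, and 1 time before Fgb, at -152 to -146. Over all 33469 windows of this length, 9.56% held it at least once and 0.493% more than once. GTTAAT was found before Fgb, at -90 to -85 on the minus strand, and not before Fgg, and 6.45% of all windows held it. A C/EBP-type pattern, TTNNGNAA, where N is any base, was found 2 times before Fgb and 0 times before Fgg. Over all windows 37.2% held it at least once and 12.8% more than once. None of these matches overlapped another. The windows of Fga, which has 2 annotated starts, held GTTAAT and TTNNGNAA 1 time each and CTGGGAA 0 times. A match is a run of letters and not a shown binding site. RefSeq's span of the Fgg gene begins within its printed window. The motifs were chosen with the sequences in view.

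Fgg, the gamma chain, was high in every tumour. Its log2 ratio was 1.33, 3.79, 2.08, 1.46 and 2.76 in carcinoma 1 to 5. It was -0.63, -1.60, -3.75, -0.94 and 1.48 in cirrhotic 1 to 5, and -0.03, -1.23, -0.27, 0.54 and -1.58 in control 1 to 5. All 5 carcinoma values lay above all 5 control values, while cirrhotic 5 was the nearest cirrhotic sample to the tumours. After normalization it lay above carcinoma 1 and carcinoma 4, but as deposited its ratio of 2.33 was below all 5 tumours, the lowest of which was carcinoma 4 at 2.36. The overlap of tumours and cirrhotic liver thus depended on the normalization.

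The deposited ratios of Fgg ran from 2.36 to 11.8 in carcinoma, from 0.101 to 2.33 in cirrhotic liver and from 0.238 to 1.32 in control liver. Ranked among the 3757 probes of its own array, Fgg stood between the 91.3 and 99.9 percentile in carcinoma. It stood at the 93.3 percentile in cirrhotic 5 and between 0.532 and 25.8 in the other cirrhotic samples, and between 8.54 and 73.2 in control liver. The tumour values were thus among the highest of each tumour array relative to each probe's median, and the control values were spread widely.

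Fgg averaged 2.29 ± 1.02 in carcinoma, -1.09 ± 1.88 in cirrhotic liver and -0.51 ± 0.87 in control liver (SD, n = 5 each). The difference was 2.80 between carcinoma and control liver, or 6.96-fold, and 3.37 between carcinoma and cirrhotic liver, or 10.4-fold. These are the comparisons in which the gene was chosen, so no interval or test is given for them. Between cirrhotic and control liver Fgg differed by -0.58 (95% interval of the log2 difference -2.09 to 0.93, limma adjusted p = 0.794). That comparison did not enter the choice, but the values of both groups did, since each was set against carcinoma. Its p-value is therefore no independent test. The difference of -0.58 changed sign without cirrhotic 3 (0.09) and was -1.22 without cirrhotic 5.

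**Figure D1:**
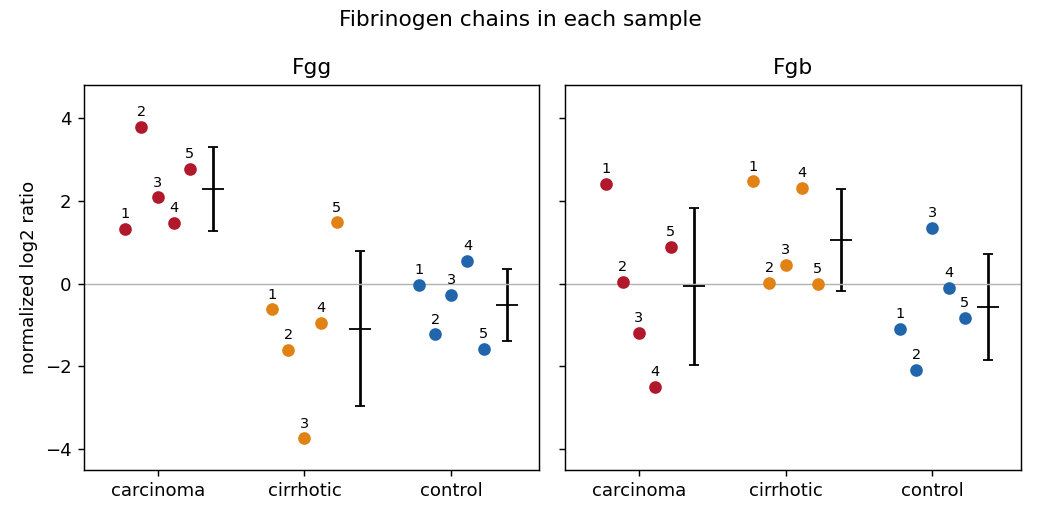
Normalized log2 ratio (vertical axis) of Fgg (left) and Fgb (right) in carcinoma, cirrhotic and control liver. Each point is a sample with its replicate number, and the bar beside each group is the mean ± SD of 5 samples; Fgg is at 1.33 or above in all 5 tumours, with cirrhotic 5 at 1.48 after normalization, whereas the 3 groups overlap in Fgb.

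Fgb, the beta chain, did not follow that pattern. Its log2 ratio was 2.41, 0.04, -1.20, -2.51 and 0.89 in carcinoma 1 to 5. It was 2.47, 0.02, 0.45, 2.30 and -0.01 in cirrhotic 1 to 5, and -1.10, -2.08, 1.35, -0.12 and -0.84 in control 1 to 5. The tumours held both high and low values, cirrhotic liver had none below -0.01, and all 3 groups overlapped.

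Fgb averaged -0.07 ± 1.89 in carcinoma, 1.05 ± 1.24 in cirrhotic liver and -0.56 ± 1.28 in control liver (SD, n = 5 each). It differed by 0.49 between carcinoma and control liver (-1.13 to 2.11, limma adjusted p = 0.898). It differed by -1.12 between carcinoma and cirrhotic liver (-2.74 to 0.50, adjusted p = 0.522) and by 1.60 between cirrhotic and control liver (-0.02 to 3.23, adjusted p = 0.514). None of these passed the test, and the intervals still allow differences of several fold. The difference between carcinoma and control liver rested on carcinoma 1, without which it was -0.13.

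By the same test 0 of the 3757 probes (0%) passed an adjusted p of 0.05 in each of the 3 comparisons. Without adjustment, p was under 0.05 for 278 probes between carcinoma and control liver (7.4%), for 497 between carcinoma and cirrhotic liver (13.2%) and for 362 between cirrhotic and control liver (9.64%). Complete separation, in which all 5 values of a group lie above all 5 of the other, was seen for 1.06% of probes as higher in carcinoma than in control liver, Fgg among them.

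**Figure D2:**
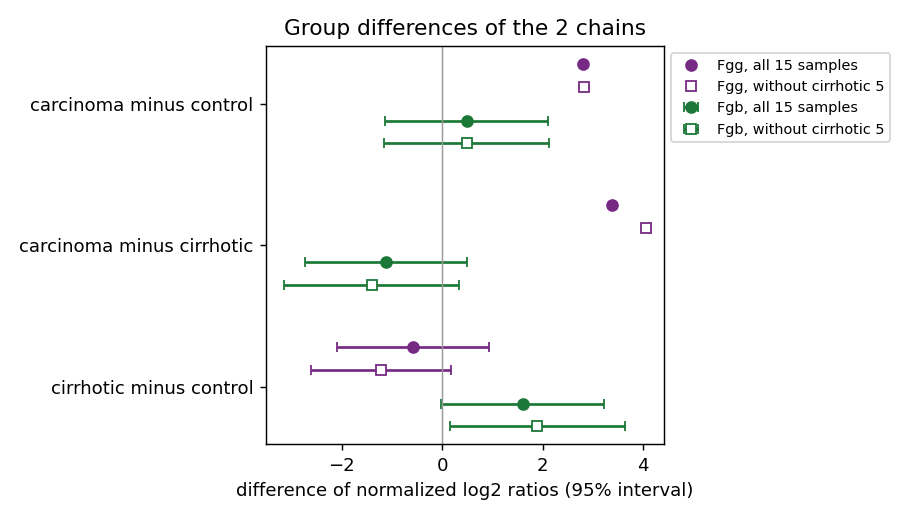
Differences of normalized log2 ratios (horizontal axis) for the 3 comparisons, with 95% intervals from limma except for Fgg in the comparisons that chose it, with all 15 samples (filled) and without cirrhotic 5 (open). Fgg lies at 2.80 and 3.37 against control and cirrhotic liver and at 4.05 against cirrhotic liver without cirrhotic 5, while each Fgb interval on all 15 samples includes 0.

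Set beside each other, the probes of the 2 chains showed no clear correlation over the samples. Pearson's r between Fgg and Fgb was -0.07 over the 15 samples (permutation p = 0.818, 100000 resamples, two-sided) and Spearman's rho was -0.08 (permutation p = 0.773). Without cirrhotic 3 and carcinoma 2, the samples farthest from the median of Fgg, r was -0.04. With each group's mean subtracted it was 0.12. Only this 1 pair of chains could be compared, so these p-values are not adjusted. Such p-values cannot show that the chains fail to move together. The Fgg values had also been chosen for their group pattern.

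Sample by sample, the chains often lay apart. In 6 of the 15 samples both chains lay on the same side of 0, namely 3 tumours, 0 cirrhotic samples and 3 control samples. On the normalized values, Fgg minus Fgb was highest in carcinoma, with a median of 3.28 (-1.09 to 3.97). It was -3.09 (-4.20 to 1.48) in cirrhotic liver and 0.66 (-1.62 to 1.07) in control liver. In this difference carcinoma 1 was the only tumour, and cirrhotic 5 the only cirrhotic sample, on the other side of 0 from its group. Fgg was chosen for high values in carcinoma, so a high difference there follows in part from that choice and is no test of the chains.

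Repeat probes show how closely probes of a single gene follow each other on these arrays, a comparison added after the values were seen. For the 38 genes measured by more than 1 probe, r between probes of the same gene over the 15 samples had a median of -0.03 over 42 pairs, with quartiles at -0.25 and 0.30. It exceeded 0.5 in 7 of the 42. The r of Fgg and Fgb therefore lies where pairs of probes annotated to 1 gene also lie, and whether the transcripts differed or the probes did was not tested.

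**Figure D3:**
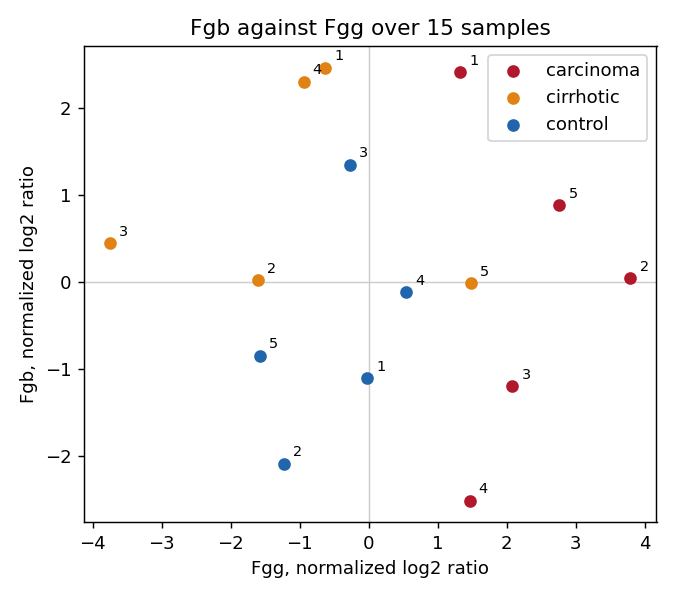
Normalized log2 ratio of Fgb (vertical axis) against that of Fgg (horizontal axis) in each of the 15 samples, with replicate numbers and the group shown by colour. The points form no line (r = -0.07): the tumours lie to the right, at heights of Fgb from -2.51 to 2.41. Cirrhotic 5, at 1.48 in Fgg, lies among them, to the right of carcinoma 1 and carcinoma 4.

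Cirrhotic 5, which the submitters titled NC5, had the highest Fgg value of the cirrhotic samples. The group was spread both ways, around a mean of -1.09 ± 1.88 (SD). Cirrhotic 3 lay far out on the low side, at -3.75, the 0.532 percentile of its array. The Fgg value of cirrhotic 5 was 3.21 above the mean of the other 4 cirrhotic samples, whose highest value was -0.63. Counting upward deviations only, 4 of the 3757 probes (0.106%), Fgg included, deviated by at least as much in cirrhotic 5. Its Fgb value of -0.01 was close to cirrhotic 2 at 0.02, and lay 1.32 below the mean of the other 4, of which cirrhotic 1 and cirrhotic 4 were high. With a running median along the probe numbering removed, Fgb was -0.23 in cirrhotic 5 and -0.24 in cirrhotic 2. Fgb therefore did not set cirrhotic 5 apart.

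Over the whole array cirrhotic 5 lay closer to its group than the other cirrhotic samples did. It was the highest of the 5 cirrhotic samples in 17.3% of probes and the lowest in 16.3%. Its median absolute deviation from the mean of the other 4 was 0.609, where the other cirrhotic samples had 0.692 to 0.801. Among the 118 probes in which all tumours lay beyond the other 4 cirrhotic samples, cirrhotic 5 reached at least the nearest tumour value in 16 (13.6%), Fgg among them. The same count for cirrhotic 1 was 191 of 293 (65.2%) and for cirrhotic 2 it was 19 of 121 (15.7%).

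Leaving cirrhotic 5 out moved Fgg between carcinoma and cirrhotic liver to 4.05, and between cirrhotic and control liver to -1.22. It moved Fgb to -1.40 (-3.14 to 0.34, limma adjusted p = 0.617) between carcinoma and cirrhotic liver and to 1.89 (0.15 to 3.63, adjusted p = 0.611) between cirrhotic and control liver. The gap between the chains widened in both. Between carcinoma and cirrhotic liver 2 of 3757 probes (0.0532%) were then past the adjusted threshold. One was Zbtb7a (a transcriptional repressor, 4.47 without cirrhotic 5 and 3.24 with it, the latter with limma adjusted p = 0.24). Zbtb7a was 4.41 in cirrhotic 5 against a cirrhotic mean of -0.31 ± 2.88 (SD), so the sample left out stood out in this gene too. The other was Fgg, for which passing is no test. Fgg was chosen in that comparison, and the sample left out stood out in it. On the normalized scale Fgg then separated tumours from cirrhotic liver completely, as 1.6% of probes did in that direction, and on the deposited ratios it did so with cirrhotic 5 included.

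The genes whose pattern over the 15 samples was most like that of Fgg, by Pearson's r of the normalized log2 ratios, were Zbtb7a (r = 0.88), Cd86 (a costimulatory ligand of antigen-presenting cells, 0.84), B4galnt1 (a ganglioside synthase, 0.82) and Plau (urokinase, which activates plasminogen to dissolve fibrin, 0.79). Hoxc4 (0.79), Masp1 (a serine protease of the complement lectin pathway, 0.79), Arsb (a lysosomal sulphatase, 0.79) and Nr0b2 (a repressing nuclear receptor of hepatocytes, 0.78) followed. The most opposite were Fgf5 (-0.77), Crmp1 (-0.74), Ucp1 (-0.72) and Sub1 (-0.67). These were taken from 3399 genes, among which Fgb ranked 1816 in likeness to Fgg.

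Of those 8 most alike genes, 7 had probe numbers within 200 of the Fgg probe, as did 31 of the 100 most alike genes and 9.83% of all genes compared. The exception was Plau. The median r with Fgg was 0.12 within that range of numbers and -0.05 outside it. With a running median along the probe numbering subtracted from each array, r was still 0.88 for Zbtb7a, 0.85 for Cd86, 0.85 for Plau and 0.68 for Masp1. What the numbering stands for on the array is not given in the sources used here, and its part in these likenesses was not tested further.

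**Figure D4:**
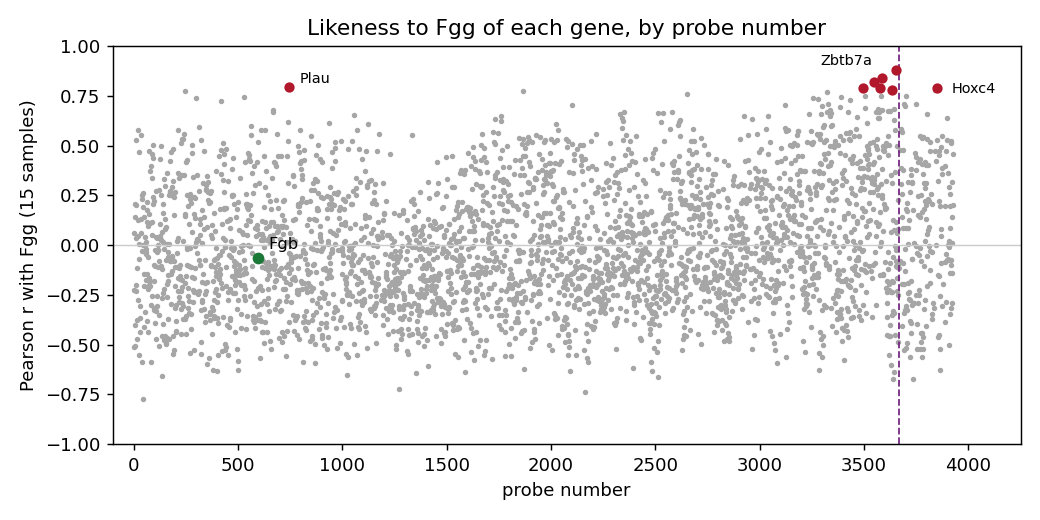
Pearson's r with Fgg over the 15 samples (vertical axis) for 3399 genes, by probe number (horizontal axis). Red points are the 8 most alike genes, 7 of them within 200 numbers of the Fgg probe (dashed line), and the green point is Fgb, at -0.07.

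The running median over neighbouring probes also differed between the groups at the Fgg probe. It averaged -0.01 in carcinoma, -0.45 in cirrhotic liver and 0.54 in control liver. With it removed, Fgg ran from 0.81 to 3.54 in carcinoma and from -3.65 to 1.71 in cirrhotic liver, and its highest control value was 0.39. Cirrhotic 5, at 1.71, then lay above carcinoma 4 and below the other tumours. Tumours were still all above control liver, with a difference of 3.34, and differed by 2.93 from cirrhotic liver, while the small difference between cirrhotic and control liver was 0.41 in place of -0.58.

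The gene most like Fgb, looked up after its values were seen, was Cebpb (r = 0.91, Spearman's rho = 0.90), which encodes a transcription factor of the acute phase response. It was followed by Aqp3 (0.89), Fxyd2 (0.87) and Htt (0.87). The r of Cebpb with Fgb was 0.84 with the running median removed and 0.90 without the samples numbered 1, and its r with Fgg was -0.01. Cebpb averaged -0.16 ± 2.33 in carcinoma, 0.92 ± 0.82 in cirrhotic liver and -1.06 ± 0.69 in control liver (SD, n = 5 each). Its values separated cirrhotic from control liver, as 0.665% of probes did as higher, with a difference of 1.98 (limma adjusted p = 0.421), and with the running median removed this was 1.03 and the groups overlapped.

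The hepatocyte transcription factors, Cebpb included, were set beside the chains because they drive liver-specific genes. With all 15 samples 0 of the 3757 probes passed the adjusted test, so a count of 0 was certain for this list and those below. Of the 24 factors listed, 19 were measured and 0 passed in any comparison. Their median difference was 0.24 between carcinoma and control liver, 0.17 between carcinoma and cirrhotic liver and -0.20 between cirrhotic and control liver, where all probes had medians of 0.00, -0.02 and 0.02. The last 2 of these directions did not hold: without cirrhotic 5 they were -0.04 and 0.05, and with the running median removed 0.00 and 0.05. Nr0b2 was higher in all tumours than in all control and all cirrhotic samples (1.64, adjusted p = 0.564, and 2.26, adjusted p = 0.224). Of all probes 1.06% were completely higher in carcinoma than in control liver and 1.25% than in cirrhotic liver. Dbp, a circadian factor, was lower in all tumours and in all cirrhotic samples than in control liver (-1.45, adjusted p = 0.645, and -1.07, adjusted p = 0.565), as 0.825% and 0.985% of probes were. With the running median removed, Dbp overlapped in both comparisons and its difference between cirrhotic and control liver was 0.0094, and Nr0b2 overlapped between tumours and cirrhotic liver. That removal also worked the other way. Hnf4a overlapped between tumours and cirrhotic liver (1.54, adjusted p = 0.234), but was higher in all tumours once the running median was removed (0.97). The share of all probes separated in that setting is not given.

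Genes of interleukin-6 and other cytokine signalling, the pathway that raises the chains, had 0 calls, where 0 of all 3757 probes were called. Of 32 listed, 23 were measured, with 13 above 0 between carcinoma and control liver (median 0.03), 6 between carcinoma and cirrhotic liver (-0.36) and 16 between cirrhotic and control liver (0.33). With the running median removed these medians were -0.05, -0.15 and 0.20, and without cirrhotic 5 the second was -0.18. Over all probes 50.1%, 49.3% and 50.7% were above 0. Between carcinoma and cirrhotic liver the widest differences were those of Nfkb1, a subunit of NF-kappa B (-1.94, adjusted p = 0.262), and Il6 itself (-1.33, adjusted p = 0.484, and -0.37 without carcinoma 5). Cirrhotic 5 was the highest cirrhotic sample in 7 of the 23 genes, where it was so in 17.3% of all probes.

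The positive acute phase proteins, which as a class rise with fibrinogen in inflammation, had 24 of 38 members measured. Of these 14 were above 0 between carcinoma and control liver (median 0.23), 17 between carcinoma and cirrhotic liver (0.28) and 8 between cirrhotic and control liver (-0.15), and 0 passed the adjusted test. With the running median removed the last 2 medians were 0.10 and 0.08, so the direction between cirrhotic and control liver turned. Of all probes 50.1%, 49.3% and 50.7% were above 0 in the 3 comparisons. Itih3, an inter-alpha-trypsin inhibitor chain, was higher in all tumours than in all control samples (1.23, adjusted p = 0.656), as 1.06% of probes were. Il1rn, the interleukin-1 receptor antagonist, was lower in all tumours than in all control samples (-2.26, adjusted p = 0.489), as 0.825% of probes were. Il1rn overlapped once the running median was removed. The median r of the list was 0.04 with Fgg and -0.05 with Fgb, where all probes had medians of -0.04 and -0.03.

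Among the negative acute phase and other plasma proteins, 21 of 37 were measured and 0 passed. Their medians were 0.28 between carcinoma and control liver, 0.31 between carcinoma and cirrhotic liver and 0.25 between cirrhotic and control liver. Without cirrhotic 5 the last 2 were 0.08 and 0.43. Between carcinoma and cirrhotic liver the widest differences were those of Apoe, apolipoprotein E (2.96, adjusted p = 0.224), and Serpina7, thyroxine-binding globulin (-2.41, adjusted p = 0.25, and -1.58 with the running median removed). The median r of the list was -0.03 with Fgg and 0.18 with Fgb.

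Of the coagulation factors and inhibitors, 13 of 32 were measured, and 0 passed in any comparison. Their median difference was 0.24 between carcinoma and control liver (7 above 0), 0.50 between carcinoma and cirrhotic liver (10 above 0) and -0.56 between cirrhotic and control liver (5 above 0). With the running median removed these were 0.09, 0.31 and -0.21. Of all probes 50.1%, 49.3% and 50.7% were above 0 in the same order. F2, the gene of prothrombin, whose active form cleaves fibrinogen, differed by 0.67, 0.49 and 0.18 in those comparisons. Between carcinoma and cirrhotic liver the widest were the protein C inhibitor Serpina5 (1.59, adjusted p = 0.567, and 0.97 without cirrhotic 3) and the tissue factor pathway inhibitor Tfpi (1.54, adjusted p = 0.251, and 0.96 with the running median removed).

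Of the fibrinolysis genes, 6 of 12 were measured and 0 passed, with medians of 0.49 between carcinoma and control liver, 0.35 between carcinoma and cirrhotic liver and 0.47 between cirrhotic and control liver, the last of which was 0.07 with the running median removed. Plau was higher in all tumours than in all control samples, as 1.06% of probes were. It ranged from 0.61 to 2.35 in carcinoma and from -1.61 to -0.37 in control liver (difference 2.65, adjusted p = 0.459). Plg, which encodes plasminogen, differed by 0.20 between carcinoma and control liver. Fibrinogen receptors and crosslinking enzymes had 9 of 20 measured and 0 passed, with medians of 0.37, -0.27 and -0.04 in the comparisons in that order. The last 2 turned to 0.02 and 0.21 with the running median removed, and without cirrhotic 5 they were -0.17 and 0.12. Their widest differences between carcinoma and cirrhotic liver were those of Icam1 (1.02, adjusted p = 0.498, and 0.58 without cirrhotic 2) and Fn1, fibronectin (0.89, adjusted p = 0.438, 0.58 without cirrhotic 5 and 0.33 with the running median removed).

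Secretory chaperones and oxidoreductases, which fold and join the chains before secretion, had 11 of 20 measured and 0 passed. Their medians were 0.29, -0.09 and 0.21 in the comparisons in that order. The second was -0.25 without cirrhotic 5 and 0.11 with the running median removed, which also gave 0.35 for the third. Pdia3, a disulphide isomerase, differed by 1.96 between carcinoma and cirrhotic liver (adjusted p = 0.224) and Ddit3, a stress-induced factor, by -1.25 (adjusted p = 0.331). Of 16 listed relatives with a fibrinogen-like domain, 2 were measured, Fcna and Tnr. Tnr, tenascin-R, was higher in all tumours than in all cirrhotic samples (1.75, adjusted p = 0.308), as 1.25% of probes were. With the running median removed the difference was 1.07 and the groups overlapped.

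Markers of other cells were set beside Fgg as well. The Kupffer cell and macrophage markers measured, 3 of 10, had a mean log2 ratio per sample from -0.26 to 0.65 in carcinoma, from -1.34 to -0.21 in cirrhotic liver and from -2.10 to 0.61 in control liver. Their median r with Fgg was 0.52, where all probes had -0.04. Their median difference between carcinoma and cirrhotic liver was 1.35, and 0.69 with the running median removed. The platelet and megakaryocyte markers measured, 2 of 9, ran from -1.29 to 0.37 in carcinoma, from -0.85 to 0.91 in cirrhotic liver and from -0.38 to 0.93 in control liver, with a median r of -0.41. The stellate cell and myofibroblast markers, 9 of 12, ran from -0.15 to 0.46 in carcinoma, from -0.50 to -0.14 in cirrhotic liver and from -0.39 to 0.25 in control liver, with a median r of 0.19. The median r was -0.32 for 5 cholangiocyte and progenitor markers, -0.10 for 4 endothelial markers, -0.09 for 5 lymphocyte markers and -0.15 for 2 erythroid markers. Selp, a platelet and endothelial adhesion protein, and Cd28, a costimulatory receptor of T cells, were higher in all cirrhotic than in all control samples. The differences were 1.46 (limma adjusted p = 0.413) and 2.57 (adjusted p = 0.421). Of all probes 0.665% were completely higher in that comparison, and both genes overlapped with the running median removed. The part of these markers in the Fgg values was not tested, and ratios to a probe's median cannot show whether a marker is absent.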

How the data were processed

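Rat liver RNA was measured on 15 arrays. The deposited values are a linear ratio, which the authors had divided by each probe's median over the arrays (median 1 within 1e-06 in all 3757 probes). The sources used here do not name the array type, dyes, scanner or background correction. Groups came from the sample titles. Of 3757 probes, 3440 had 1 platform symbol (3429 matched RefSeq by gene identifier), 4 had several and 313 none listed. Where a gene had several probes, the least variable within groups stood for it. Array means, 2% trimmed off either end, spanned 1.49-fold, so the ratios were quantile-normalized and put on the log2 scale, with no filter and no pseudocount. A single linear model of the 15 samples held only the group (lmFit and eBayes with trend, limma 3.58.1, R 4.3.3; 12 residual degrees of freedom; two-sided; Benjamini-Hochberg over all probes; threshold 0.05). Before use, that model was run on simulated data, with a check only that its mean estimates returned the added differences. Its rate of false calls was not checked against a limit. Precision is limited by how few arrays there are.

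The members, the gene lists and the tests were chosen with earlier results of these data known. The rule for named genes took the chains, the 8 most and 4 least alike genes by Pearson's r, and, per pathway list, up to 6 members with complete separation or else the 2 with the widest difference between carcinoma and cirrhotic liver. It also took genes past the threshold with or without cirrhotic 5. Cell type marker lists were left outside that step, and their members with complete separation are named beside them. These, F2, Plg, Cps1, G6pc1, Hnf4a and the likeness to Fgb were added after values were seen. Promoters came from RefSeq.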

Additional observations from a re-analysis of the deposited data

Results flagged for a closer look

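In 87 groups of 5 samples (29 genes, 3 groups each) the most extreme sample was compared with its neighbours by Dixon's rule. By chance this rule flags about 1 group of 20, and 4 of the 87 were flagged, near that share. None concerned Fgg or Fgb. Serpina5 was -3.09 in carcinoma 2, where the other tumours had -0.02 to 0.57. Nr0b2 was 1.65 in carcinoma 2, where the others had 0.63 to 0.83. Masp1 was 1.32 in carcinoma 2, where the others had 0.17 to 0.35. Dbp was 0.90 in control 5, where the others had 0.20 to 0.39. Fgg was also highest in carcinoma 2 among the tumours, at 3.79, in a range that starts at 1.33. Nr0b2 and Masp1 are among the 8 genes most alike to Fgg, so their high values in that sample are no separate finding.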

How the results depend on the processing

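Fgg stayed above 0 between carcinoma and control liver (2.50 to 3.34 under the settings on all samples, 2.46 to 3.12 leaving out 1 sample) and between carcinoma and cirrhotic liver (2.51 to 3.50, and 2.77 to 4.05). Between cirrhotic and control liver Fgg was 0.41 after subtracting the running median by probe number, with or without the replicate block, and ranged from -1.22 to 0.088 leaving out 1 sample. Fgb between carcinoma and control liver was -0.25 without the 3 samples numbered 1 (chosen after seeing the data) and ranged from -0.13 to 1.10 leaving out 1 sample (0.12 without control 2, 0.23 without carcinoma 5, 0.76 without carcinoma 3, 0.97 without control 3, 1.10 without carcinoma 4). On the deposited ratios it was 0.99. Between carcinoma and cirrhotic liver Fgb ranged from -1.72 (without carcinoma 1) to -0.51 (without carcinoma 4) leaving out 1 sample, was -0.74 without cirrhotic 1, and was -0.64 with a floor at the 25th percentile. Between cirrhotic and control liver it ranged from 1.19 to 2.08 leaving out 1 sample, and was 1.16 with the running median removed and 1.01 without the samples numbered 1. The r of Fgg and Fgb lay between -0.16 and 0.15 in all settings. The number of probes past the threshold was 0 throughout, except 2 between carcinoma and cirrhotic liver without cirrhotic 5 (0 to 2 leaving out 1 sample). Of 520 recomputed differences of other named genes 518 kept their direction, and Dbp between cirrhotic and control liver was 0.0094 with the running median removed, with or without the replicate block. With a floor at the 25th percentile Serpina5 was 0.32, Il6 -0.28 and Icam1 0.46 between carcinoma and cirrhotic liver. The replicate block alone changed no call (Fgg between carcinoma and cirrhotic liver 3.37). Deviations of same-numbered samples correlated at -0.34 to 0.39, and the numbers were not taken to pair samples. The highest was that of carcinoma 1 with cirrhotic 1, and cirrhotic 1 with control 1 had 0.32. Such correlations cannot show whether samples share a rat. Mean of several Fgg probes was not run, since Fgg has 1 probe. The causes were not tested.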
